A study of Mus musculus with 4 samples.

Results

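The genes described here are the splicing factors and RNA helicases of meningeal lymphatic endothelial cells: 135 of the 9114 genes in the deposited table. The rule that chose them uses gene names and no measured value. The families are the SR proteins (Srsf, Srrm), their kinases (Srpk, Clk), the snRNP, Sm and LSm proteins (Snrp, Snrnp, Lsm), Sf1 and the Sf3a and Sf3b proteins, and the Prpf, Cwc and Luc7-like proteins. The hnRNP, PTB, CELF, MBNL, RBFOX, TRA2 and numbered RBM proteins and the numbered DDX and DHX helicases completed the set, and the RNA sensor Ddx58 was left out. Of 215 protein-coding mouse genes whose symbols follow these patterns in GENCODE vM21, 134 had a row, and 1 further member, Rbm46os, is annotated as an antisense transcript. All 135 were read in all 4 libraries, passed the filter on low values and were tested.

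The spliceosome removes introns in a series of steps: U1 snRNP marks the 5′ splice site, SF1 and the SF3 proteins of U2 snRNP recognise the branch site, and the U4/U6.U5 tri-snRNP joins before catalysis. SR proteins and hnRNP proteins bind exons and introns and raise or lower the use of nearby splice sites, and SRPK and CLK kinases phosphorylate the SR proteins. DEAD-box (DDX) and DEAH-box (DHX) proteins use ATP to rearrange RNA and RNA-protein complexes, in splicing, in export of mRNA from the nucleus, in ribosome assembly and in translation.

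The question was how expression in meningeal lymphatic vessels differs when VEGF-C, a growth factor for lymphatic endothelium, is supplied by a virus. Male C57BL/6J mice of 20 to 24 months had been injected in the cisterna magna with 5 µL of either AAV1-CMV-mVEGF-C or, as control, AAV1-CMV-eGFP. The meninges were taken after 4 weeks, and cells that were DAPI-, CD45-, CD31+ and PDPN+ were sorted. There were 2 libraries per group, mVEGF-C 1 and 2 and eGFP 1 and 2, each from the meninges of 10 mice pooled together. All mice were aged and all had received a virus, so no uninjected or young group is part of the comparison. The CMV promoter is not restricted to a cell type, and the labels do not say which cells took up the virus.

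The libraries held 25610683 to 28632461 reads on the genes of the table. Lymphatic markers were all present, 17 of 17, at 2.31% to 2.65% of normalised counts. Markers of other cells that a sort could carry over were partly present, with 8 of 16 for meningeal fibroblasts (0.159% to 0.393%), 4 of 10 for mural cells (0.0495% to 0.113%), 6 of 18 for leukocytes (0.111% to 0.156%) and 4 of 12 for neural and glial cells (0.0021% to 0.00571%). Present means having a row in the deposited table. A marker without a row need not be absent from the cells, since replicates in the table never differed beyond the limits given below. The percentages leave such markers out. The summed mural markers were lower in both mVEGF-C libraries (17574 and 13169 normalised counts) than in both eGFP libraries (27997 and 20514). The summed leukocyte markers were also lower in mVEGF-C (36641 and 29612) than in eGFP (38587 and 39020). Gene by gene, mVEGF-C lay below eGFP in 1 of 4 mural and 1 of 5 leukocyte markers tested, and the groups overlapped in the rest. In 2 of 4 neural and glial markers mVEGF-C lay above eGFP. For lymphatic markers it lay above in 6 of 17 and below in 1 (35.3% and 5.88%). For pan-endothelial markers it lay above in 4 of 13 and below in 0 (30.8% and 0%). The groups overlapped in all 8 fibroblast markers. Of all genes, 19.8% lay below and 19.4% above. The part of other cells in the results below was not tested. In the table, replicates never differed by more than 2.83 in the eGFP pair and 4.24 in the mVEGF-C pair on the log2 scale. Across groups the widest gap was 10.69. The spread between replicates is therefore understated and the p-values are too small.

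The splicing factors and helicases took 1.85% and 1.61% of reads in eGFP 1 and 2, against 2.03% and 1.84% in mVEGF-C 1 and 2. The group means were 1.73% ± 0.172 and 1.94% ± 0.135 (SD, n = 2), and the groups overlapped (exact two-sided permutation test, p = 0.667, with 0.333 the smallest possible). In bulk RNA, fewer cells of a type and less RNA per cell cannot be told apart, here and for every gene below. Single genes were compared with limma on log2(normalised count + 1), and called means an adjusted p (Benjamini-Hochberg, over all 9063 genes tested) under 0.05. A positive log2 fold change means a higher value in mVEGF-C, and SE is its standard error.

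In this fit 1 of the 135 genes rose in mVEGF-C, the SR-related protein gene Srrm2, and 3 fell, the helicase genes Ddx39, Ddx31 and Dhx32. Of all genes tested, 0.828% rose and 1.31% fell (2.14% in either direction), so the 4 calls among 135 genes are near the background. On recovered reads, edgeR called 1 higher and 3 lower, with Rbm18 in place of Dhx32, against 0.739% and 0.872% of all genes (1.61% in either direction). DESeq2 called 3 higher and 6 lower, against 3.19% and 3.63% of all genes (6.82% in either direction). It added Ddx19b, Ddx20, Prpf19, Rbm18, Snrpb and Snrpg and did not call Srrm2. At an unadjusted limma p under 0.05, 7 splicing genes were higher and 10 were lower, or 12.6% in all, against 5.09% and 6.7% of all genes, 11.8% in all. The groups did not overlap in 57 genes (39.2% of all genes): mVEGF-C was the higher group in 29 (21.5%; 19.4% of all genes) and the lower in 28 (20.7%; 19.8% of all genes). For the other 78 genes the groups overlapped. The median log2 fold change was 0.17 over the splicing genes and -0.02 over all genes, and 73 members (54.1%) against 49.5% of all genes had a value above 0. The median size of a log2 fold change, regardless of sign, was 0.77 for the splicing genes and 0.79 for all genes.

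**Figure D1:**
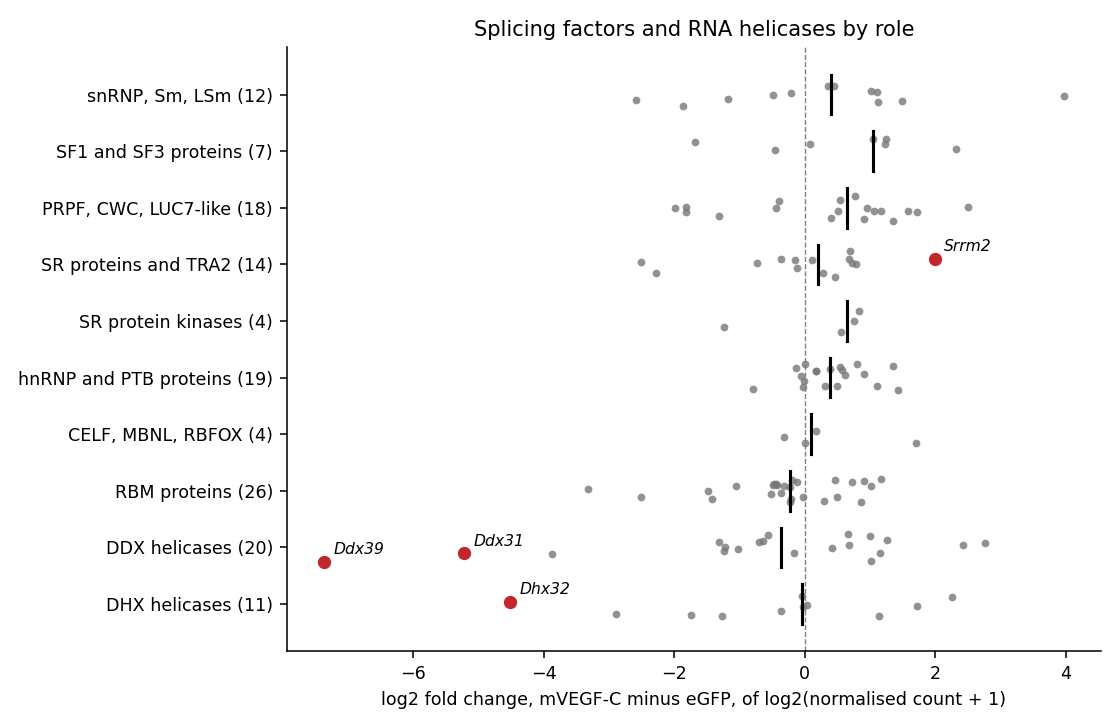
Log2 fold change, mVEGF-C minus eGFP, of each of the 135 genes (points, spread vertically for visibility), grouped by role with the number of genes in brackets; the black bar is the median of the role and red points are genes at a limma adjusted p under 0.05. Points lie on both sides of 0 in every role, Srrm2 is the red point to the right of 0, and Ddx39, Ddx31 and Dhx32 lie at -7.38, -5.23 and -4.52.

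The gene that rose, Srrm2, encodes a large serine- and arginine-rich protein of the active spliceosome and of nuclear speckles. Srrm2 lies on mouse chromosome 17 at 23790532 to 23824741 on the plus strand (GRCm38). Its normalised counts were 7582 and 6228 in eGFP 1 and 2, against 32351 and 23054 in mVEGF-C 1 and 2. Both mVEGF-C libraries stood far above both eGFP libraries, with group means of 6905 ± 957 and 27702 ± 6574 (SD, n = 2). The difference was 3.97-fold, a log2 fold change of 1.99 (SE 0.48, 95% interval 1.06 to 2.92, limma adjusted p = 0.00374). The call was lost without eGFP 2 (log2 fold change 1.85, limma adjusted p = 0.0858) and without mVEGF-C 1 (1.75, limma adjusted p = 0.202). It was also lost in DESeq2 (adjusted p = 0.109) and in limma with 1 variance for all levels of expression (adjusted p = 0.422), and kept in edgeR (adjusted p = 0.00626).

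The 300 bases around the RefSeq start of Srrm2 (250 before and 50 after it, GRCm38.p6, chr17:23802937-23803236, plus strand) are shown because this is the gene that rose. The window lies inside the GENCODE gene, downstream of its first base, and was the RefSeq window of Srrm2 nearest to that base. The bases around the GENCODE start itself were not searched. Both strands of the window were searched for short motifs that promoters often hold. These were the TATA box, spelled TATAAA here, and the CCAAT box with just those letters. The GC box was taken as GGGCGG, a site known for binding SP1. The core of sites for ETS factors was taken as CCGGAAG, and the E-box, which basic helix-loop-helix proteins bind, as CACGTG. None of these letters was found in it, so it is printed without capitals.
Srrm2 promoter: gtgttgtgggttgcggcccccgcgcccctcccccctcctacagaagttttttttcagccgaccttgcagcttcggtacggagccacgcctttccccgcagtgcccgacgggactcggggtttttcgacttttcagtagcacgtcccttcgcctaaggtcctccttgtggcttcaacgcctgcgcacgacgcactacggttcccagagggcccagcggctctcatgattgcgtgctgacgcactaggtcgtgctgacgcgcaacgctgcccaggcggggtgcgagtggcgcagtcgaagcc

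The other SR proteins gave no call in limma, edgeR or DESeq2, and at an unadjusted limma p under 0.05 only Srsf4 was added. SR proteins carry RNA recognition motifs and an arginine- and serine-rich tail, and bind exonic enhancers. Of the 14 SR and TRA2 genes, 8 had a log2 fold change above 0 and 6 below, with a median of 0.20. The median was 0.08 without eGFP 2 and 0.44 without eGFP 1. In 7 the groups overlapped, in 4 mVEGF-C lay above and in 3 below (28.6% and 21.4%, against 19.4% and 19.8% of all genes). Srsf5, the gene of this class with the most reads, had 18551 and 22615 normalised counts in eGFP and 23837 and 20678 in mVEGF-C. The mVEGF-C values straddled the higher eGFP value, and the log2 fold change of 0.12 had an interval of -0.65 to 0.88 (limma adjusted p = 0.968).

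The lowest fold changes of the SR class belonged to Srsf4 and Srrm3. Srsf4, a long SR protein, read 1122 and 3412 in eGFP and 843 and 138 in mVEGF-C, and its log2 fold change of -2.52 (SE 1.10) missed the threshold (limma adjusted p = 0.287). Srrm3, best known as a regulator of neuronal microexons, read 102 and 416 in eGFP and 41.7 and 41.8 in mVEGF-C (-2.28, limma adjusted p = 0.517). In both genes the mVEGF-C libraries lay below the eGFP libraries, with a wide gap within at least 1 pair. Among the kinases that phosphorylate SR proteins (Clk1, Clk2, Clk4 and Srpk1), none was called by limma, edgeR or DESeq2, none reached an unadjusted limma p under 0.05, and 3 of 4 had overlapping groups. Clk1, whose own transcript is known for a regulated retained intron, read 15959 and 4966 in eGFP and 11670 and 14617 in mVEGF-C. The gap inside the eGFP pair was wider than the gap between the group means (log2 fold change 0.55, limma adjusted p = 0.801).

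The hnRNP and PTB proteins bind nascent RNA and often repress exons. None of the 19 was called by limma, edgeR or DESeq2. At an unadjusted p under 0.05 in limma, 1 was higher and 0 were lower, against 5.09% and 6.7% of all genes. In sign, 14 had values above 0 and 5 below, with a median of 0.38, and the number above 0 was 13 when the libraries were scaled to the same total, by TMM or by quantiles, 16 in edgeR and 15 in DESeq2. Without eGFP 2 it was 12, with a median of 0.14. In 12 of the 19 the groups overlapped, in 6 mVEGF-C lay above and in 1 below (31.6% and 5.26%, against 19.4% and 19.8% of all genes). Hnrnph1, which binds runs of guanines, read 15618 and 15589 in eGFP and 13137 and 17805 in mVEGF-C. Its log2 fold change of -0.03 had an interval of -0.91 to 0.86 (limma adjusted p = 0.996). The highest fold change of the class, in Hnrnpr, was 1.44 (limma adjusted p = 0.326), from 7053 and 1929 in eGFP to 14014 and 7112 in mVEGF-C.

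In the core spliceosome limma called no gene, and fold changes pointed both ways within single complexes. Of the 12 snRNP, Sm and LSm genes 7 had values above 0 (median 0.41). At an unadjusted p under 0.05 in limma, 1 was higher and 1 lower, against 5.09% and 6.7% of all genes. The sign of the median rested on single libraries: without mVEGF-C 2 it was -0.23 with 5 of 12 above 0, and it was 0.14 without eGFP 1, 0.19 without mVEGF-C 1 and 0.82 without eGFP 2. Snrpg, which encodes the Sm ring protein SmG, read 36.7 and 5.34 in eGFP and 114 and 513 in mVEGF-C. Both mVEGF-C libraries were above both eGFP libraries, and the log2 fold change of 3.98 (SE 1.31, 95% interval 1.41 to 6.54) missed the threshold (limma adjusted p = 0.0798). It passed with quantile normalisation (limma adjusted p = 0.0362), in DESeq2 (adjusted p = 0.0104) and without mVEGF-C 1 (limma adjusted p = 0.0254).

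Another Sm ring gene, Snrpb, had the opposite sign. Its counts were 249 and 592 in eGFP and 54.5 and 73.4 in mVEGF-C, with a log2 fold change of -2.58 (SE 1.27, limma adjusted p = 0.390), and DESeq2 called it (adjusted p = 0.0328). Snrpg and Snrpb proteins sit in the same ring in every Sm-class snRNP, and both groups were apart in both genes.

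U5 snRNP holds the catalytic scaffold PRPF8, the helicase SNRNP200 that unwinds U4/U6, the GTPase EFTUD2 and the smaller proteins PRPF6 and SNRNP40. Prpf8 read 9662 and 11519 in eGFP and 30101 and 13028 in mVEGF-C. The difference rested mainly on mVEGF-C 1, and the log2 fold change of 0.91 had an interval of -0.00 to 1.82 (limma adjusted p = 0.426). Snrnp200 read 9193 and 6966 in eGFP and 4422 and 2839 in mVEGF-C, so that both mVEGF-C libraries were below both eGFP libraries (-1.18, SE 0.69, limma adjusted p = 0.548). Snrnp40 read 346 and 461 in eGFP and 2097 and 602 in mVEGF-C (1.49, limma adjusted p = 0.703).

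Branch site recognition gave 5 of 7 values above 0, with a median of 1.04. In 4 of the 7 genes the groups overlapped, in 1 mVEGF-C lay above and in 2 below (14.3% and 28.6%, against 19.4% and 19.8% of all genes). The median was 0.24 without eGFP 1. It was 0.43 without eGFP 2 and 0.52 without mVEGF-C 2, with 4 of 7 above 0 in both of these fits. None was called by limma, edgeR or DESeq2, nor reached an unadjusted limma p under 0.05. Sf3b1, the large SF3b subunit that grips the branch helix, read 7250 and 3103 in eGFP and 9930 and 9647 in mVEGF-C (log2 fold change 1.04, SE 0.63, limma adjusted p = 0.564). Sf3a2 was read at low depth, 15.2 and 50.2 in eGFP against 49.1 and 411 in mVEGF-C. Its fold change of 2.32 (limma adjusted p = 0.511) came from mVEGF-C 2, since mVEGF-C 1 lay between the eGFP libraries.

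Among the 18 PRPF, CWC and LUC7-like genes 12 had values above 0, with a median of 0.65, and the count was the same when scaled to the same total, by TMM or by quantiles. Without mVEGF-C 1 it was 10 with a median of 0.25, and without eGFP 2 it was 11 with a median of 0.39. None was called by limma. At an unadjusted p under 0.05 in limma, 2 were higher and 0 lower, against 5.09% and 6.7% of all genes. The highest was Prpf19, the ubiquitin ligase at the centre of the complex that activates the spliceosome. It read 271 and 136 in eGFP and 737 and 1624 in mVEGF-C (2.50, SE 1.18, limma adjusted p = 0.349), with both mVEGF-C libraries higher, and DESeq2 called it (adjusted p = 0.0473). Prpf38b read 5297 and 1514 in eGFP and 11415 and 6299 in mVEGF-C (1.58, limma adjusted p = 0.309). Prpf40b, a U1-associated protein, read 277 and 251 in eGFP and 286 and 2667 in mVEGF-C, so its value of 1.73 (limma adjusted p = 0.643) came almost entirely from mVEGF-C 2.

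At the other end of the class stood Cwc27 and Luc7l. Cwc27, a cyclophilin-like protein of the activated spliceosome, read 1878 and 1635 in eGFP and 615 and 315 in mVEGF-C, groups that were well apart (-1.99, SE 1.09, limma adjusted p = 0.490). Luc7l, a relative of a yeast U1 protein, read 1695 and 1856 in eGFP and 155 and 1602 in mVEGF-C (-1.83, limma adjusted p = 0.551), and mVEGF-C 2 was close to the control libraries.

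The CELF, MBNL and RBFOX regulators bind intronic and exonic elements and set cell-type patterns of exon use. None of the 4 in the table was called by limma, edgeR or DESeq2. At an unadjusted p under 0.05 the count was also 0. Celf2 had overlapping groups, with 5847 and 8859 in eGFP and 8794 and 7493 in mVEGF-C (0.17, limma adjusted p = 0.969). Rbfox2, which binds GCAUG elements, read 1337 and 375 in eGFP and 3219 and 1667 in mVEGF-C, with both mVEGF-C libraries higher (1.71, SE 1.02, limma adjusted p = 0.558).

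RBM proteins share an RNA recognition motif and have varied tasks. Of the 26 genes, 8 had log2 fold changes above 0 and 18 below, with a median of -0.22, and the groups overlapped in 17. In 8 genes (30.8%; 19.8% of all genes) both mVEGF-C libraries were below both eGFP libraries, and in 1, Rbm28, they were above (3.85%; 19.4% of all genes). The count above 0 stayed at 8 when the libraries were scaled to the same total, by TMM or by quantiles, but was 11 in DESeq2 and 12 in edgeR, and 9 to 12 when 1 library was left out. No RBM gene was called in limma. At an unadjusted limma p under 0.05, 0 were higher and 3 were lower, against 5.09% and 6.7% of all genes.

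Rbm18 read 2231 and 12966 in eGFP and 678 and 1310.0 in mVEGF-C. Both mVEGF-C libraries were below both controls, which differed several-fold from each other. The log2 fold change was -2.51 (SE 0.90, limma adjusted p = 0.130), and edgeR and DESeq2 called it (adjusted p = 0.0322 and 0.0355). Rbm7, a subunit of the nuclear exosome targeting complex, read 212 and 619 in eGFP and 154 and 7.43 in mVEGF-C (-3.33, SE 1.29, limma adjusted p = 0.183), and limma called it without mVEGF-C 1 (adjusted p = 0.0124). Rbm5, a regulator of exons in apoptosis genes, read 15167 and 6555 in eGFP and 12210 and 15416 in mVEGF-C, with overlapping groups (0.46, limma adjusted p = 0.847).

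In the limma fit the helicases held all 3 calls downward. Of 31 DDX and DHX genes, 3 fell and none rose, against 1.31% and 0.828% of all genes. At an unadjusted limma p under 0.05, 5 were lower and 2 higher, against 6.7% and 5.09% of all genes. The other tools differed: edgeR called Rbm18, not a helicase, lower and did not call Dhx32. DESeq2 called Rbm18 and Snrpb lower too, and the helicase Ddx20 higher. The median log2 fold change was -0.16 over the helicases and 0.29 over the other 104 genes. Leaving out 1 library gave -0.28 to -0.05 for the helicases and 0.09 to 0.33 for the others. For the 20 DDX genes alone, the median of -0.36 rested on single libraries: it was 0.01 without eGFP 2, 0.16 without mVEGF-C 1 and 0.11 without mVEGF-C 2. The difference between these sets was not tested.

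**Figure D2:**
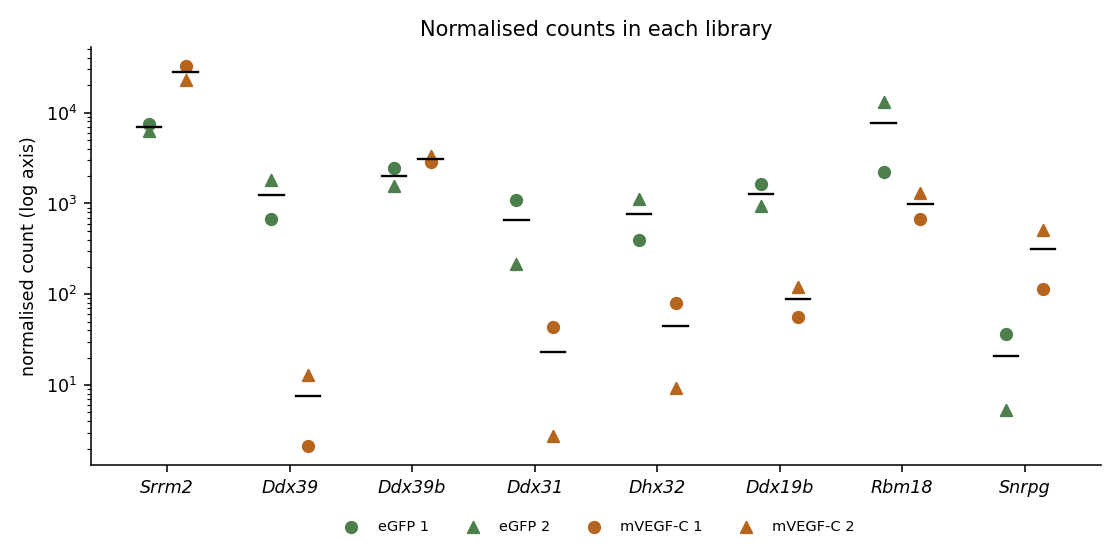
Normalised count (log axis) of 8 genes in each library; circles are replicate 1 and triangles replicate 2, green is eGFP, brown is mVEGF-C, and bars are group means. Ddx39, Ddx31 and Dhx32 lie lower in both mVEGF-C libraries, Srrm2 lies higher in both, and Ddx39b lies between 1553 and 3368 throughout.

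Ddx39 (human DDX39A, also URH49) is a DEAD-box ATPase that helps to load export factors onto spliced mRNA. The gene lies on chromosome 8 at 83715177 to 83726892, plus strand. Its normalised counts were 675 and 1794 in eGFP and 2.14 and 13.0 in mVEGF-C, which stand for 754 and 1678 reads against 2 and 14. Each eGFP library read far more than either mVEGF-C library, with means of 1234 ± 791 and 7.57 ± 7.69 (SD, n = 2). The log2 fold change was -7.38 (SE 1.30, 95% interval -9.92 to -4.83, limma adjusted p = 2.05e-05). It was called in edgeR (adjusted p = 0.00193) and was lost when eGFP 2 was left out (log2 fold change -6.67, limma adjusted p = 0.204), where limma called no member and 2 higher and 5 lower members had an unadjusted p under 0.05.

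Its close relative Ddx39b (UAP56), a subunit of the TREX export complex, read 2462 and 1553 in eGFP and 2833 and 3368 in mVEGF-C. The log2 fold change was 0.66 (SE 0.88, 95% interval -1.07 to 2.39, limma adjusted p = 0.884), with both mVEGF-C libraries above both controls. Over 1284 aligned coding bases the genes were 80.9% identical, and their longest identical run was 26 bases. Neither shared a window of 100 bases with a transcript of another gene, leaving out genes whose exons overlap theirs. The stretch that holds that run is shown to let the copies be compared, with the 13 differing bases in capitals (coding bases 197 to 316 of Ddx39 and 200 to 319 of Ddx39b, GENCODE vM21).
Ddx39: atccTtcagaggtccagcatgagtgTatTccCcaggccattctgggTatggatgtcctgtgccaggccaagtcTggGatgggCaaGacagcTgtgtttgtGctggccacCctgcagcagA
Ddx39b: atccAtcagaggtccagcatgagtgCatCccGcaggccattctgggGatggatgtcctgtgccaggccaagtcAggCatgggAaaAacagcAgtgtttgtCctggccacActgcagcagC

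Exons of Ddx39 overlap those of Adgre5, on the opposite strand, by 895 bases. Adgre5 read 1673 and 7244 in eGFP and 5596 and 2196 in mVEGF-C, with overlapping groups. The strand setting of the authors' counting is not given in the sources used here, so reads in the shared bases cannot be assigned.

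Ddx19a and Ddx19b encode DEAD-box proteins of the nuclear pore that release export factors on the cytoplasmic side. Ddx19b read 1620 and 932 in eGFP and 56.6 and 119.8 in mVEGF-C. The groups were far apart, and the log2 fold change of -3.88 (SE 1.22, 95% interval -6.27 to -1.49) missed the threshold in limma (adjusted p = 0.0606). It passed in DESeq2 (adjusted p = 0.000367) and without mVEGF-C 2 (limma adjusted p = 0.0356). Ddx19a read 575 and 2718 in eGFP and 595 and 1209 in mVEGF-C, with overlapping groups (-0.56, SE 1.06, limma adjusted p = 0.927).

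The 2 genes are 93.2% identical over their aligned coding bases, with a longest identical run of 275 bases, and 23.2% of the 100-base windows of Ddx19a and 18.9% of those of Ddx19b occur in another gene. Their separate values are therefore uncertain. A stretch of 120 bases inside that run is given for both genes (coding bases 691 to 810 of Ddx19a and 739 to 858 of Ddx19b) to show a part where no base differs, hence no capitals.
Ddx19a: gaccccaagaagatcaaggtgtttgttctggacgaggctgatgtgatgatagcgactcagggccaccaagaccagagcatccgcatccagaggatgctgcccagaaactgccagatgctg
Ddx19b: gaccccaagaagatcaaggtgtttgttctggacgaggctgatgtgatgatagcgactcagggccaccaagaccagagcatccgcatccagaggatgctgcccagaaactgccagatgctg

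Ddx31, a nucleolar DEAD-box protein of ribosome assembly, lies on chromosome 2 at 28840406 to 28905571, plus strand. It read 1104 and 214 in eGFP and 43.8 and 2.79 in mVEGF-C, or 1233, 200, 41 and 3 reads. Every mVEGF-C value was below every control value, and the libraries within each group also differed widely, with means of 659 ± 630 and 23.3 ± 29.0 (SD, n = 2). The log2 fold change was -5.23 (SE 1.30, 95% interval -7.77 to -2.68, limma adjusted p = 0.00670), and edgeR and DESeq2 called it (adjusted p = 0.0403 and 0.00148). The limma call was lost without eGFP 1 (-4.04, adjusted p = 0.511), without eGFP 2 (-6.41, adjusted p = 0.204) and without mVEGF-C 2 (-3.44, adjusted p = 0.169), and with 1 variance for all levels (adjusted p = 0.112).

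Dhx32, a DEAH-box protein, lies on chromosome 7 at 133720942 to 133782726, minus strand. It read 397 and 1125 in eGFP and 81.2 and 9.29 in mVEGF-C, with means of 761 ± 515 and 45.2 ± 50.8 (SD, n = 2). Both mVEGF-C libraries were below both controls, by a log2 fold change of -4.52 (SE 1.28, 95% interval -7.03 to -2.02, limma adjusted p = 0.0253). It missed the threshold in edgeR (adjusted p = 0.0937), and in limma without eGFP 1 (-5.27, adjusted p = 0.217), without eGFP 2 (-3.77, adjusted p = 1.00), without mVEGF-C 2 (-3.03, adjusted p = 0.241) and with 1 variance for all levels (adjusted p = 0.125). Its exons overlap those of Bccip on the opposite strand by 204 bases, and Bccip was not analysed here.

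The promoter windows of Ddx31 (chr2:28840156-28840455, plus strand) and Dhx32 (chr7:133782736-133783035, minus strand), both RefSeq on GRCm38.p6, are shown because these helicase genes were called in the same direction. The capitals mark the GC box of Ddx31, the only match in either window to the 5 motifs searched in Srrm2.
Ddx31 promoter: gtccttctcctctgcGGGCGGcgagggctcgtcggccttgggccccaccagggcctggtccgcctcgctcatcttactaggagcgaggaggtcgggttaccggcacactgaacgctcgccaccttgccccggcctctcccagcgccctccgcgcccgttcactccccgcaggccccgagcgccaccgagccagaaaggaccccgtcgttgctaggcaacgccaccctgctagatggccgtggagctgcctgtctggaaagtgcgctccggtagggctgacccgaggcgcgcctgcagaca
Dhx32 promoter: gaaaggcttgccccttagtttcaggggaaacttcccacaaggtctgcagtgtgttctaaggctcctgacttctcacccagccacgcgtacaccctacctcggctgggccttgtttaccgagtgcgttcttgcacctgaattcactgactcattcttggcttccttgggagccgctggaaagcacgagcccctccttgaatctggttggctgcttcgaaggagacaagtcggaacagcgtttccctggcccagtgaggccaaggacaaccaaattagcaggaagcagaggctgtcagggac

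Of all 149 RefSeq promoter windows of the members (117 genes matched), 59.1% held a GC box, against 35.7% of 32851 windows of all RefSeq genes. An ETS core was in 27.5% and 8.86%, a CCAAT box in 41.6% and 37.4%, an E-box in 10.7% and 7.15%, and a TATA box in 9.40% and 13.6%. The median GC content was 59.7% for the members and 52.7% for the 27025 RefSeq genes. That set was not limited to genes read in these cells, unlike the members. The GC box and ETS core are themselves GC-rich, and the counts describe letters, not bound sites.

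Several helicases had fold changes in the opposite direction without a call. Ddx20 (Gemin3), a member of the SMN complex that builds Sm rings, read 222 and 77.0 in eGFP and 680 and 1174 in mVEGF-C, with groups well apart (2.76, SE 1.21, limma adjusted p = 0.287). DESeq2 called it (adjusted p = 0.0426). Ddx49, a ribosome assembly helicase, read 283 and 69.5 in eGFP and 2963 and 193 in mVEGF-C, so mVEGF-C 2 lay between the controls (2.42, limma adjusted p = 0.412). It was called without mVEGF-C 2 (4.39, limma adjusted p = 0.0392).

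Spliceosomal helicases had values in both directions. Of 6 members (Snrnp200, Ddx42, Dhx15, Dhx16, Dhx35 and Dhx38, a group composed after its values were seen), 4 lay higher in both mVEGF-C libraries and 2 lay lower, against 19.4% and 19.8% of all genes. Aqr, a spliceosomal helicase outside the named families, had overlapping groups (2134 and 4536 in eGFP, 1647 and 3732 in mVEGF-C). None was called by limma, edgeR or DESeq2, nor reached an unadjusted limma p under 0.05. Dhx38 (PRP16), which remodels the spliceosome between its catalytic steps, read 141 and 111 in eGFP and 970 and 373 in mVEGF-C (2.26, SE 1.23, limma adjusted p = 0.486). Dhx35 read 474 and 205 in eGFP and 1015 and 1052 in mVEGF-C (1.72, limma adjusted p = 0.632). Dhx15 (PRP43), which takes the spent spliceosome apart, read 2997 and 2052 in eGFP and 6528 and 4526 in mVEGF-C (1.13, limma adjusted p = 0.648).

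Among 11 ribosome assembly helicases, also grouped after the values were seen, none lay higher in both mVEGF-C libraries, 3 lay lower and 8 overlapped, against 19.4% higher and 19.8% lower of all genes, and the median was -0.70. Dhx37, which acts on the small ribosomal subunit, read 801 and 238 in eGFP and 26.7 and 124 in mVEGF-C (-2.90, SE 1.27, limma adjusted p = 0.286), with both mVEGF-C libraries lower. The helicases with the most reads were not called. Ddx5 (p68), a splicing and transcription cofactor, read 22993 and 31365 in eGFP and 41797 and 30750 in mVEGF-C (0.42, 95% interval -0.22 to 1.05, limma adjusted p = 0.714). Ddx3x, an X-linked translation helicase, read 10568 and 8591 in eGFP and 8278 and 8727 in mVEGF-C (-0.16, 95% interval -1.28 to 0.95, limma adjusted p = 0.969). Its Y-linked partner Ddx3y had no row under that name in the deposited table.

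Of 18 paralog pairs, composed after the values were seen, 10 had log2 fold changes of opposite sign. Since 49.5% of all genes had a value above 0, that count is near what unrelated genes would give. In 1 pair, Ddx39 and Ddx39b, a copy was called by limma. Luc7l and Luc7l2 were 71.0% identical in coding sequence and had values of -1.83 and 0.54. For Rbm26 and Rbm27 (67.1%) the values were -1.43 and 0.73, and for Prpf38a and Prpf38b (69.2%) they were -0.39 and 1.58. Rbm12b1 and Rbm12b2 were 98.1% identical with a shared run of 1455 bases, so their values of -0.31 and 1.17 are uncertain. No difference between copies was tested.

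**Figure D3:**
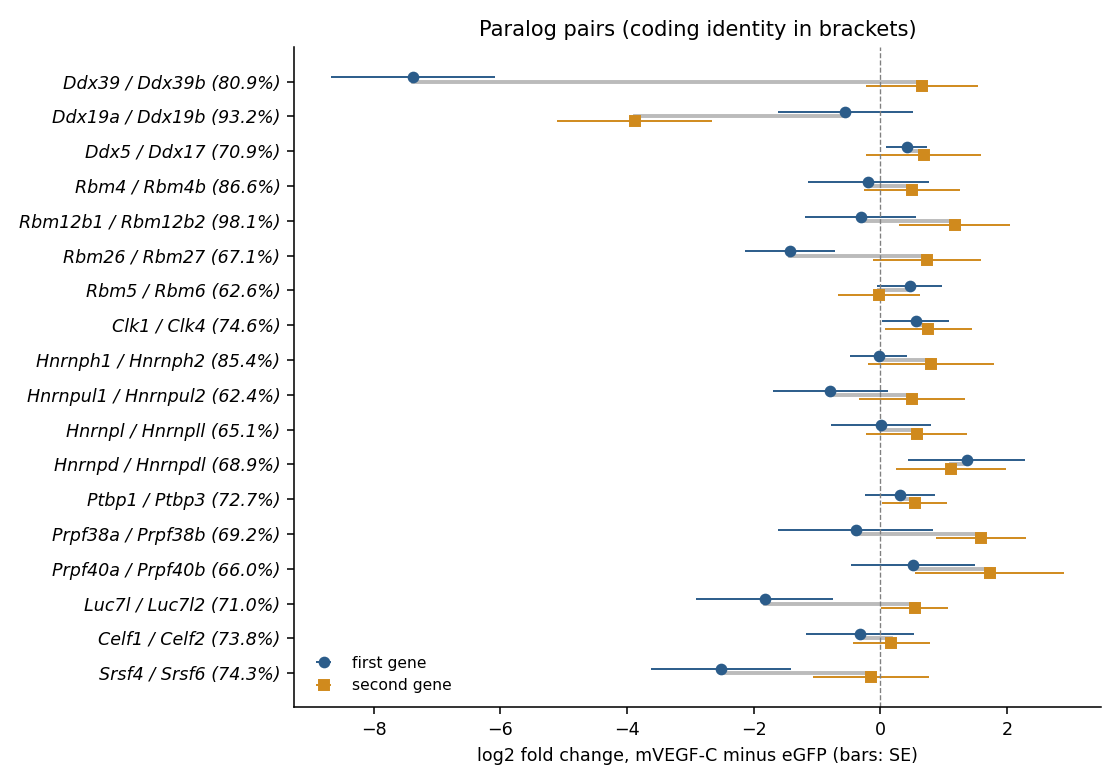
Log2 fold change, mVEGF-C minus eGFP, of both genes of each paralog pair (blue circle, first gene; orange square, second gene; bars are SE), with coding identity in brackets. The Ddx39 and Ddx39b values, -7.38 and 0.66, are the farthest apart, and the SE bars of many other pairs overlap.

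Sequence shared with other genes was sought in a chosen transcript of each member, on the sense strand. Genes whose exons overlap the member were left out. In this search 101 members shared no 100-base window with a transcript of another gene, and 34 shared some. In 4 genes over 50% of windows were shared: Hnrnpa3 (97.6%), Hnrnpf (54.9%), Rbm12b2 (54.3%) and Rbm12b1 (53.2%), and their values are uncertain. Of the genes called, Ddx39, Ddx31 and Dhx32 shared none and Srrm2 shared 0.901%. Snrpg shared 13.8% of its windows.

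Replicate error depended on level. Among the 23 members with a mean below 500 normalised counts, the median absolute log2 difference between replicates was 1.54 in the eGFP pair and 1.67 in the mVEGF-C pair, and the median SE of a fold change was 1.27. The 17 members at 8000 or more had 0.29 and 0.44, with a median SE of 0.52. Genes such as Srsf5, Hnrnph1 and Ddx5 therefore have intervals within about 1 log2 unit of 0, while those of Sf3a2 or Snrpg span several units. Over all members the median replicate difference was 0.84 and 0.98, against 0.94 and 1.07 over all genes.

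Per kilobase of transcript, the highest level among the members was that of Srsf5, with 13823 normalised counts per kilobase in eGFP and 14948 in mVEGF-C. Hnrnpa3 followed with 9210 and 10622, then Ddx5 with 7637 and 10192, Hnrnph1 with 7340 and 7277, and Clk1 with 5826 and 7318. Each of these 5 genes overlapped the next in its values over the 4 libraries, and the Hnrnpa3 value includes reads that other loci could share. On the same scale Srrm2 went from 779 to 3125, and Ddx39 from 745 to 4.57. The 5 members with the most reads (Ddx5, Srsf5, Srrm2, Prpf8 and Hnrnph1) held 16.3% and 19.9% of the members' reads in eGFP and 24.3% and 21.5% in mVEGF-C.

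The rest of the RNA processing machinery, from lists of genes outside the families above, gave few calls too. Of 35 other spliceosome components tested (66 listed), 1 rose and 1 fell in limma, against 0.828% and 1.31% of all genes. Cactin read 37.6 and 6.41 in eGFP and 1857 and 126 in mVEGF-C (4.85, SE 1.30, limma adjusted p = 0.0147), and Tfip11, which helps to disassemble the spliceosome with DHX15, read 497 and 920.4 in eGFP and 63.0 and 17.7 in mVEGF-C (-4.29, SE 1.27, limma adjusted p = 0.0395). Both groups were apart in both genes. The limma calls were lost for both without eGFP 1 (adjusted p = 0.105 and 0.305) and without eGFP 2 (0.983 and 1.00), for Cactin without mVEGF-C 1 (0.406) and for Tfip11 without mVEGF-C 2 (0.168). With 1 variance for all levels limma called neither (adjusted p = 0.151 and 0.0876). Tfip11 was not called in edgeR either (adjusted p = 0.0898), and DESeq2 called both and also Gpatch1, which was lower.

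Of 16 cleavage and polyadenylation genes tested (22 listed), 1 rose in limma and 0 fell, against 0.828% and 1.31% of all genes. At an unadjusted limma p under 0.05, 2 were higher and 0 lower, against 5.09% and 6.7%. The gene called was Cpsf4, a zinc finger subunit that reads the poly(A) signal. It read 8.06 and 3.21 in eGFP and 252 and 249 in mVEGF-C (5.35, SE 1.31, limma adjusted p = 0.00567). That limma call was lost without eGFP 1 (adjusted p = 0.141) and without eGFP 2 (0.688). DESeq2 also called Nudt21 higher. None was called by limma or edgeR among 52 other splicing regulators (72 listed), 14 exon junction and nonsense-mediated decay genes (18 listed), 16 mRNA export genes (24 listed) or 19 exosome and decay genes (32 listed). At an unadjusted p under 0.05, those 4 lists held 1 higher and 1 lower, 1 and 0, 0 and 3, and 2 and 1 genes in limma, against 5.09% and 6.7% of all genes. DESeq2 called 1 higher, 1 higher, 2 lower and 1 lower, against 3.19% and 3.63% of all genes. The medians were 0.13, 0.25, -0.29 and -0.28, against -0.02 over all genes.

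**Figure D4:**
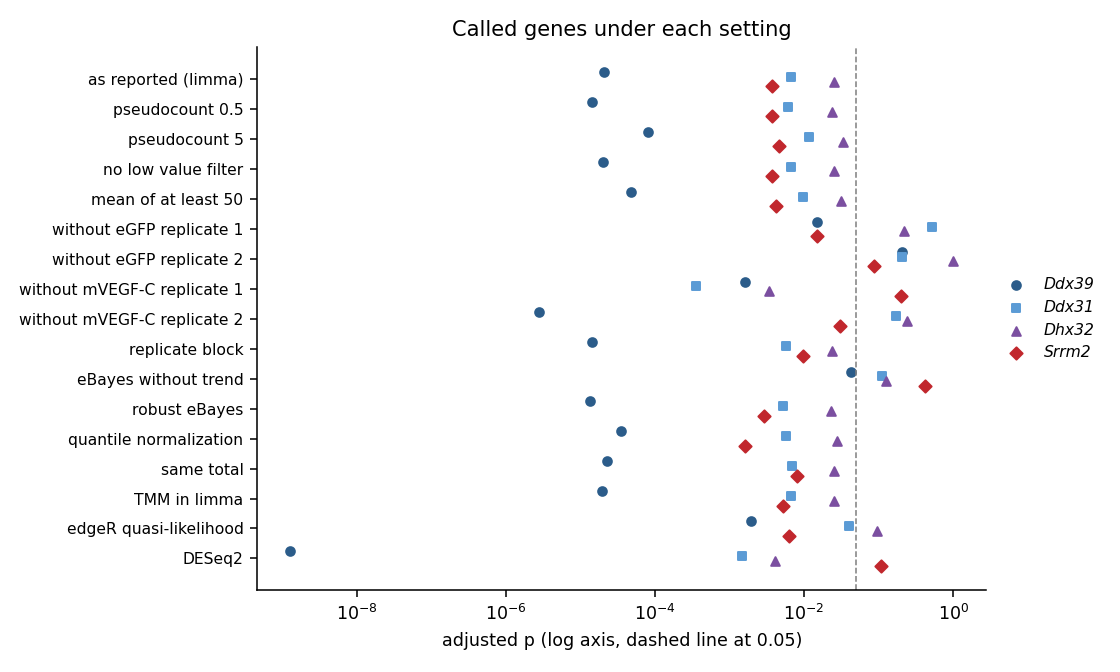
Adjusted p (log axis, dashed line at 0.05) of the 4 called genes under the reported limma fit and 16 alternatives. Ddx39 stays left of the line in every setting except without eGFP 2, and Srrm2, Ddx31 and Dhx32 cross it in several.

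The 4 calls were recomputed under 16 other settings, and the direction of each was the same in all 16. Only Ddx39 stayed called in 15 of them. Across the leave-one-out fits its log2 fold change ran from -8.46 to -6.30, that of Ddx31 from -7.01 to -3.44, that of Dhx32 from -6.02 to -3.03 and that of Srrm2 from 1.75 to 2.23.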

How the data were processed

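RNA sequencing of sorted meningeal lymphatic endothelial cells gave 4 libraries, 2 per group. Extraction was by PicoPure kit with linear amplification of RNA, per the labels' protocols. Per the submitters' processing notes, FastQC, Trimmomatic, Salmon and DESeq2 were used on mm10, and no versions are given. The values the authors deposited are a signal, normalised read counts. All of them (100% within 0.001) are whole multiples of the value of 1 read in their library, and whole reads were recovered by division. Recovered depth, on the genes of the table, ran from 25610683 to 28632461 reads.

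The main test was limma 3.58.1 in R 4.3.3 (lmFit, eBayes with trend, two-sided) on log2(normalised count + 1) with 9063 genes kept at a mean of 10 or more. The added 1 shrinks the change of low genes, but limma values can be larger or smaller in size than those fitted to reads. The log2 fold change of Ddx31 was -5.23 in limma, -4.81 in edgeR and -4.83 in DESeq2. For Cactin it was 4.85 in limma and 5.49 in both edgeR and DESeq2. Residual degrees of freedom were 2 and the prior was infinite, so a gene's own spread did not enter its p-value. edgeR 4.0.16 (quasi-likelihood) and DESeq2 1.42.0 were run on the recovered reads as alternatives, beside pseudocounts, filters, scalings and leaving out each library. The labels give pools of mice as samples and do not say how pools were formed. The limma p-values rest on the spread between these samples as shared over genes of similar level, not on that of the single gene. The scripts were tested on simulated data.

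Coordinates and coding sequences are from GENCODE vM21 on GRCm38, and promoters from RefSeq on GRCm38.p6. Coding sequences were aligned with Biopython 1.88, and library measures were compared with scipy 1.17.1. The members, roles and lists were chosen with earlier results of these data known. Genes were named if called, or if among the 12 highest or 12 lowest fold changes at a mean of at least 50. The member of each role with the most reads, Ddx39b and Ddx3x were also named. Ddx3y was to be named with Ddx3x but had no row. The paralog pairs, the groups of helicases by task, and further members (Ddx19a, Hnrnpr, Rbm28, those in a paralog pair or with shared windows) were chosen after the values were seen, as were Aqr, Cactin, Cpsf4, Gpatch1, Nudt21 and Tfip11.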

Additional observations from a re-analysis of the deposited data

How the results depend on the processing

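With 2 libraries per group, 1 library decides many calls. Leaving out each library in turn gave 0 to 2 members higher and 0 to 4 lower (1 and 3 as reported), and 5 to 104 genes higher and 0 to 188 lower of all tested (75 and 119 as reported). Without eGFP 2 limma called no member, and 2 higher and 5 lower had an unadjusted p under 0.05; over all genes 196 lower genes had such a p and none was called lower. In limma without a variance trend 0 members were higher and 1 lower, and 15 and 26 of all genes. At an unadjusted p under 0.05 that fit gave 5 members higher and 10 lower, and 449 and 599 of all genes. Quantile normalisation gave 2 members higher. DESeq2 gave 3 members higher and 6 lower, and 289 and 329 of all genes, and edgeR gave 79 of all genes lower.

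Of 576 pairs of a named gene and an alternative, 544 kept direction and side of the threshold. Of the rest, 14 lost the call, 12 gained one and 6 reversed. Of the 36 named genes, only Ddx39, Ddx31, Dhx32 and Srrm2 were called in the reported fit, and all 14 losses were theirs, over 16 alternatives each. The other named genes had no call to lose, and staying uncalled counted as keeping the side of the threshold. With 1 library left out, the fold changes ran from -0.13 to 0.47 for Celf2, -0.29 to 1.39 for Clk1, -0.25 to 0.19 for Hnrnph1, -0.14 to 1.07 for Rbm5 and -0.027 to 0.26 for Srsf5. The sign turned without eGFP 1 for Celf2 and Srsf5, without eGFP 2 for Clk1 and Rbm5, and without mVEGF-C 1 for Hnrnph1, which was also at 0.0093 in edgeR. The cause was not tested. The members' median log2 fold change stayed above 0 in all 16 alternatives, from 0.05 to 0.26. The replicate block and the variance options leave fold changes as they are, so there the median of 0.17 could not move.

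The labels do not say whether libraries with the same replicate number are paired across groups. Over genes, the deviations of eGFP 1 and mVEGF-C 1 from their group means had a correlation of 0.00013. With 2 libraries per group this cannot settle whether they are paired. With the replicate number as a block, the same 4 members were called, 1 higher and 3 lower, and 74 higher and 129 lower of all genes. Members under 500 normalised counts had a median SE of 1.27, so differences of several-fold were not detectable there.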
